A study of Mus musculus with 6 samples.

Results

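The genes described here are 10 members of the prostaglandin pathway, taken by symbol from a table of 18019 genes: Pla2g4a, Ptgs1, Ptgs2, Ptges, Ptges2, Ptges3, Tbxas1, Ptgir, Ptger2 and Ptger4. All 10 were found. Polyadenylated RNA was sequenced from RAW264.7, a mouse macrophage line that arose from a virus-induced tumour. All 6 libraries came from cells induced with lipopolysaccharide (LPS), a bacterial product that drives macrophages to an inflammatory state. The control group (n = 3) received LPS and no TPPU. The TPPU group (n = 3) received LPS and TPPU, an inhibitor of soluble epoxide hydrolase. The labels state neither the dose nor the time of either agent. No library without LPS was analysed here, so the response to LPS itself was not measured. Nothing in the labels ties the 3 libraries of a group to separate cultures, and p-values therefore measure only how far these samples spread, a spread that may be technical.

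Prostaglandin synthesis starts when cytosolic phospholipase A2, the product of Pla2g4a, frees arachidonic acid from membrane lipids. The cyclooxygenases COX-1 (Ptgs1, present in many resting cells) and COX-2 (Ptgs2, induced in macrophages by bacterial products) turn it into prostaglandin H2. Terminal enzymes then make prostaglandin E2 (Ptges, Ptges2 and Ptges3) or thromboxane (Tbxas1). Prostaglandin E2 acts on the cell through EP2 (Ptger2) and EP4 (Ptger4), and prostacyclin through IP (Ptgir), and all of these receptors raise cyclic AMP. Soluble epoxide hydrolase acts on a separate branch of arachidonic acid metabolism, in which cytochrome P450 enzymes form epoxides.

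The promoters of Ptgs2 and Ptgs1 are shown because these paralogs differed most in level, and that of Ptgir because it and Ptgs1 were the tested members with all TPPU values below all control values. Each line is the RefSeq sequence (GRCm38.p6, the mm10 assembly, plus strand) from 250 bases before to 50 bases after the annotated start. They lie at chr1:150099781-150100080, chr2:36230176-36230475 and chr7:16906240-16906539. Capitals mark matches to the C/EBP palindrome TTGCGCAA, the CRE half-site CGTCA, the E-box CACGTG, the TATA box TATAAA and the GC box GGGCGG, searched on both strands.
Ptgs2: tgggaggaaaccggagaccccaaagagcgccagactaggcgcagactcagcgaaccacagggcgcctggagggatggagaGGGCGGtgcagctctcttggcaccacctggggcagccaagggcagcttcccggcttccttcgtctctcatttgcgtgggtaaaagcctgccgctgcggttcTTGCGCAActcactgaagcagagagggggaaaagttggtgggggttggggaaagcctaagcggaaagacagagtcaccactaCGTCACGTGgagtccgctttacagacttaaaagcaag
Ptgs1: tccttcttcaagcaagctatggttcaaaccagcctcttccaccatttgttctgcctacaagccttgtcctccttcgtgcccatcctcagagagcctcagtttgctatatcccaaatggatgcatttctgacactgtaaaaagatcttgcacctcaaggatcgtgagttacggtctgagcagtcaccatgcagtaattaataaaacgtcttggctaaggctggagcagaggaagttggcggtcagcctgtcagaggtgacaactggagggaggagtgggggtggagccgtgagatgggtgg
Ptgir: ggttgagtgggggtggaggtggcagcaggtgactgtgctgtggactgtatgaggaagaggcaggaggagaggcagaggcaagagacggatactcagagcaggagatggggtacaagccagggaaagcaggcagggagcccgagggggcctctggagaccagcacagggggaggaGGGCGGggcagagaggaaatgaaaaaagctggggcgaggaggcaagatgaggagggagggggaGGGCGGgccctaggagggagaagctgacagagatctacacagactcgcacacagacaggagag
The Ptgs2 window held the C/EBP palindrome at -69 to -62, a GC box at -170 to -165, a CRE half-site at 14 to 18 and an E-box at 17 to 22 from the annotated start, and the last 2 of these share 2 bases. Ptgir held GC boxes at -76 to -71 and -13 to -8, and Ptgs1 had none of the 5 motifs. Of 32851 promoter windows of the same length, 0.183% held the palindrome, 20.8% the CRE half-site, 7.15% the E-box, 13.6% the TATA box and 35.7% the GC box. The palindrome was found in the window of Ptgs2 alone among the 11 windows of the 10 genes. AP-1 (TGANTCA, in 7.81% of all windows) matched the Tbxas1 window and the CCAAT box (CCAAT, in 37.4%) matched those of Pla2g4a, Ptger2 and Ptger4. The general NF-kB consensus (in 8.46%) matched the Ptges3 window at -87 to -78, where it overlaps a GC box, and a form of it with a fixed pair of T bases (in 4.79%) matched none of the 11. These are matches of letters, not measured binding sites.

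No gene of the set passed the test for a difference between TPPU and control. Ptgs2 was by far the most abundant of them, and its values overlapped between the groups. Ptgs1, Ptgir and the scarce Tbxas1 were the members in which every TPPU library lay below every control library. Ptger4 had the largest difference among the tested members, a log2 difference of -0.34 (95% interval -0.69 to 0.02, limma adjusted p = 0.627), with values that overlapped. Of the 10 genes 8 had at least 1 FPKM (fragments per kilobase of gene, scaled by library depth) in at least 3 libraries and were tested with limma on log2(FPKM + 1). None of the 8 passed at an adjusted p of 0.05, and none had an unadjusted p under 0.05. Over all 9728 genes tested, 0% passed the adjusted threshold and 7.89% had an unadjusted p under 0.05. In a bulk sample, fewer cells that express a gene and less RNA per cell cannot be told apart.

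Of the 8 tested members 5 had a negative difference, against 45.6% of all tested genes, and the median was -0.03, against 0.02 over all tested genes. The 5 include Ptges3, whose difference rounded to 0 and changed sign with a pseudocount of 0.1. Ptgs1 and Ptgir made 2 of 8 with all TPPU values below all controls, against 7.88% of all tested genes. None had all TPPU values above all controls, against 7.48%. With 3 libraries against 3, an exact permutation test of a single gene cannot give a p below 0.1.

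Estimated depth was 17.7 to 22.8 M (mega) fragments per library. Control replicate 3 stood apart, with correlations to the other libraries of 0.958 to 0.977 across genes and a score of 31.4 on a first principal component where the others lay between -14 and 5. Transcripts of the mitochondrial genome took 0.371% of its FPKM and 0.914% of that of TPPU replicate 1, while the other libraries held 1.46% to 1.85%. GC content of the transcript was set against each library's deviation from the gene mean across the tested genes, which do not count as replicates. Spearman's rho was 0.61 in control replicate 3. It was -0.19 and -0.45 in control replicates 1 and 2, and 0.24, -0.29 and -0.42 in TPPU replicates 1, 2 and 3. Macrophage markers fitted the label: 8 of 9 were at 1 FPKM or more in every library (Adgre1 at 183 to 271, Cd68 at 899 to 1105), and Mertk was at 0.0217 or below. The 9 summed to 1906 to 2275 FPKM in the controls and 2022 to 2134 with TPPU. Of 17 markers of other cell types 11 were in the table, and they summed to 2.23 to 4.02 and 1.93 to 2.58. Only Col1a1 (2.33 in control replicate 1) and Pecam1 (1.14 in control replicate 3) reached 1 FPKM in any library. The labels of the TPPU samples also cite a column named for an sh-LIS1 knockdown in another table, not used here. Pafah1b1, which encodes LIS1, measured 11.7, 14.2 and 6.52 in the controls and 10.7, 13.5 and 14.2 with TPPU.

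FPKM is a level per length of gene, so the members can be ranked, with a limit. Values were set against the joined exon length of all transcripts of a gene. For Ptgs1, Ptges, Ptges2, Tbxas1 and Ptger2 all 6 lay within 0.1 of a whole fragment. That held for 4 values of Ptger4, 2 of Ptges3 and 0 of Ptgs2, Pla2g4a and Ptgir. A small error of depth moves high counts off a whole number, so the length cannot be checked there. The joined length exceeds the longest transcript by unlike amounts. These lengths were 6391 and 3453 bases for Pla2g4a and 6648 and 3771 for Ptger4, but 3334 and 3305 for Ptgir. The order of members with close means therefore depends on the length used, and other lengths were not tested. Ptgs2 ranked between 11 and 13 of 18019 genes in every library and held 0.481% of all FPKM. It exceeded Ptgir, the next member, by 31.9 to 57.3 times. Below it came Ptgir, Ptges3 and Pla2g4a, with means over the 6 libraries of 29.3, 22.3 and 19.9 FPKM. Their ranges overlapped, and Ptges3 exceeded Pla2g4a in 4 of 6 libraries. Ptgs1, Ptger4, Ptges2 and Ptges followed at means of 4.68, 4.21, 4.02 and 3.45, again with overlapping ranges between neighbours. Pla2g4a exceeded Ptgs1 by 2.82 to 5.43 times, with no overlap. Tbxas1 and Ptger2 were the lowest, with means of 0.0786 and 0.0634, and Ptges exceeded Tbxas1 by 26 to 167 times.

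**Figure D1:**
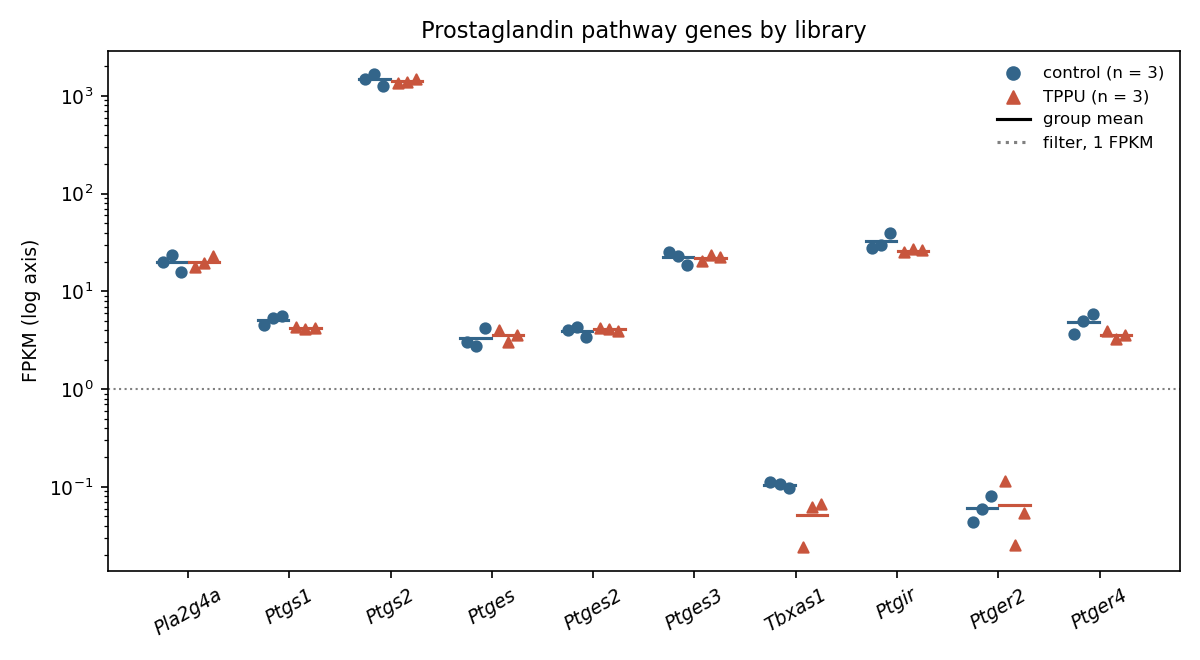
FPKM (log axis) of the 10 prostaglandin pathway genes in each library, with circles for control, triangles for TPPU and bars for the mean of 3 libraries. Ptgs2 sits at 1270 FPKM or more in every library, 7 genes lie between 2.79 and 39.8, and Tbxas1 and Ptger2 lie under the dotted filter line at 1 FPKM.

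Pla2g4a lies on chromosome 1 (149829618 to 149961290, mm10, minus strand), 138.7 kb from Ptgs2, so the genes for the release of arachidonic acid and for COX-2 are neighbours. It measured 20.2, 23.4 and 15.7 FPKM in control replicates 1, 2 and 3 and 17.7, 19.7 and 22.9 in TPPU replicates 1, 2 and 3. Control replicate 3 was the lowest library and control replicate 2 the highest, so the TPPU values lay inside the range of the controls. The log2 difference was 0.04 (95% interval -0.32 to 0.39, limma adjusted p = 0.959). Without control replicate 3 it was -0.11.

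Ptgs2 (chromosome 1, 150100031 to 150108227, plus strand) measured 1506, 1660 and 1270 FPKM in the controls and 1350, 1385 and 1504 with TPPU. All TPPU values fell within the range of the controls, whose lowest was control replicate 3. The group means were 1479 ± 196 and 1413 ± 80.7 (SD, n = 3 each), and the log2 difference was -0.06 (95% interval -0.30 to 0.19, limma adjusted p = 0.892). Without control replicate 3 both remaining controls lay above all TPPU values and the difference was -0.16 (limma adjusted p = 0.46). With a trend on GC content removed from each library it was -0.17 (limma adjusted p = 0.365). The transcript of Ptgs2 had the lowest GC content of the 10 genes, 40%.

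Ptgs1 (chromosome 2, 36230426 to 36252272, plus strand) encodes the constitutive cyclooxygenase. It measured 4.56, 5.35 and 5.55 FPKM in the controls and 4.33, 4.1 and 4.22 with TPPU. Every TPPU library lay below every control, and the nearest values were those of control replicate 1 (4.56) and TPPU replicate 1 (4.33). The means were 5.15 ± 0.528 and 4.22 ± 0.114, and the log2 difference was -0.24 (95% interval -0.49 to 0.02, limma adjusted p = 0.631). It was -0.19 without control replicate 3, where the groups still did not overlap, and -0.24 with the GC trend removed. The ratio of Ptgs2 to Ptgs1 was 331, 310 and 229 in the controls and 312, 338 and 356 with TPPU, so the groups overlapped. Control replicate 3 had the lowest ratio.

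The prostaglandin E2 synthases had no common direction. Ptges (chromosome 2, 30889471 to 30929863, minus strand) encodes the membrane enzyme that is induced along with COX-2 in macrophages. It measured 3.02, 2.79 and 4.2 FPKM in the controls and 4.05, 3.06 and 3.61 with TPPU. Control replicate 3 and TPPU replicate 1 were the highest, and the groups overlapped. The log2 difference was 0.08 (95% interval -0.27 to 0.44, limma adjusted p = 0.893). Without control replicate 3 all TPPU values lay above both controls and the difference was 0.22 (limma adjusted p = 0.582).

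Ptges2 (chromosome 2, 32395896 to 32405772, plus strand), a membrane-associated synthase, varied least of the 10 genes, with a coefficient of variation of 7.8% over the 6 libraries. It measured 4.03, 4.36 and 3.45 FPKM in the controls and 4.17, 4.16 and 3.97 with TPPU, a log2 difference of 0.05 (95% interval -0.22 to 0.32, limma adjusted p = 0.923). The TPPU values lay inside the range of the controls. Ptges3 (chromosome 10, 128058954 to 128077272, plus strand) encodes p23, a co-chaperone of HSP90 that is also named cytosolic prostaglandin E synthase. It measured 25.2, 23.2 and 18.6 in the controls and 20.6, 23.7 and 22.3 with TPPU. The means were 22.3 ± 3.36 and 22.2 ± 1.56, and the 95% interval of the log2 difference ran from -0.29 to 0.29 (limma adjusted p = 1). The annotation also holds a processed pseudogene of Ptges3 (chromosome 6, 85843980 to 85844459), and how reads shared with it were counted is not given in the sources used here.

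Tbxas1 (chromosome 6, 38875404 to 39084585, plus strand) encodes thromboxane A synthase. It measured 0.112, 0.107 and 0.0979 FPKM in the controls and 0.0242, 0.0627 and 0.0673 with TPPU. With the estimated depths and an exon length of 9094 bases these values equal 18, 22 and 17 fragments in the controls and 4, 13 and 13 with TPPU, each within 0.1 of a whole fragment. The groups did not overlap, and TPPU replicate 1, the lowest, was close to 3 fragments. That number was set here as a floor and is no measured limit of detection. The means were 0.106 ± 0.00715 and 0.0514 ± 0.0237, with an exact permutation p of 0.1 (two-sided), the smallest this design allows. Counting error alone was 21.3% to 50% of each value. The span of Tbxas1 overlaps Hipk2 on the other strand. The library kit keeps the strand, but the counting setting is not given in the sources used here, so reads of the overlap may be shared.

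**Figure D2:**
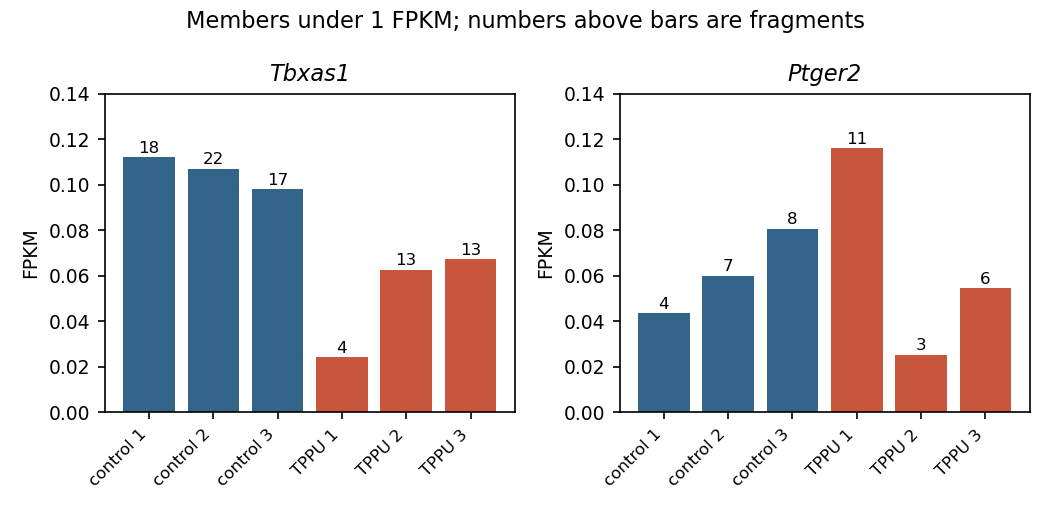
FPKM of Tbxas1 and Ptger2 in each library as bars from 0, with control in blue and TPPU in red and the estimated fragments above each bar. Tbxas1 rests on 4 to 22 fragments per library, with the 3 TPPU bars below the 3 control bars, and Ptger2 on 3 to 11 with overlapping groups.

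Among the receptors, Ptgir (chromosome 7, 16906490 to 16910905, plus strand), which encodes the prostacyclin receptor IP, was the most abundant. It measured 27.7, 29.7 and 39.8 FPKM in the controls and 25, 27.3 and 26.2 with TPPU. The groups did not overlap, but control replicate 1 and TPPU replicate 2 nearly met, and control replicate 3 was far above all others. The means were 32.4 ± 6.5 and 26.2 ± 1.14. The log2 difference was -0.28 (95% interval -0.60 to 0.03, limma adjusted p = 0.638), and -0.13 without control replicate 3 (limma adjusted p = 0.595). With the GC trend removed it was -0.25.

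Ptger4 (chromosome 15, 5206661 to 5244187, minus strand) encodes EP4, the receptor through which prostaglandin E2 restrains cytokine production in macrophages. It measured 3.7, 5.02 and 5.8 FPKM in the controls and 3.92, 3.26 and 3.54 with TPPU. Control replicate 1 lay below TPPU replicate 1, so the groups overlapped. The means were 4.84 ± 1.06 and 3.57 ± 0.334. Control replicate 3 was the highest library and TPPU replicate 2 the lowest. The log2 difference of -0.34 was -0.22 without control replicate 3 and -0.42 with the GC trend removed. The span of Ptger4 overlaps Ttc33 on the other strand.

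Ptger2 (chromosome 14, 44988195 to 45003820, plus strand) encodes EP2. It was barely detected, at 0.0435, 0.0599 and 0.0807 FPKM in the controls and 0.116, 0.0253 and 0.0544 with TPPU, or 4, 7 and 8 fragments against 11, 3 and 6. Both the highest and the lowest library belonged to the TPPU group, and the exact permutation p was 0.9 (two-sided). The groups summed to 19 and 20 fragments, and TPPU replicate 2 was at the floor of 3 that was set here. Counting error alone was 30.2% to 57.7% of each value.

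Counting error of the 8 tested members lay below the spread between libraries, by least for Ptges2, with 4.49% to 5.48% against 7.8%. Ptges, with the fewest fragments at 210 to 315, had a counting error of 5.63% to 6.9% and varied by 17% over the 6 libraries. Ptgs2, at 111102 to 171172 estimated fragments, had a counting error of at most 0.3% and varied by 9.62%. Ptger4 varied most of the tested members, by 23.5%, on 435 to 751 fragments. Intervals from counting cover no error of library preparation.

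The 8 tested members split into 2 sets by their value in control replicate 3. Ptgs1, Ptges, Ptgir and Ptger4 were highest of all 6 libraries there, and Ptgs2, Ptges2, Ptges3 and Pla2g4a were lowest. Over all tested genes, control replicate 3 was the highest library for 34.8% and the lowest for 27.7%. On the log2 scale it deviated from the gene mean by 0.45 for Ptgir and 0.41 for Ptger4, and by -0.32 for Pla2g4a and -0.24 for Ptges3. The GC content of the longest transcript was 51%, 53.1%, 54.5% and 43.6% for Ptgs1, Ptges, Ptgir and Ptger4, and 40%, 54.7%, 43.2% and 44.1% for Ptgs2, Ptges2, Ptges3 and Pla2g4a, and the part of GC content in the split was not tested. Patterns over the 6 libraries were most alike for Ptgs2 and Pla2g4a, with a root mean square difference in deviation of 0.09 on the log2 scale, and least alike for Pla2g4a and Ptger4, at 0.36. Ptgs1, Ptgir and Ptger4 lay within 0.11 to 0.13 of each other.

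**Figure D3:**
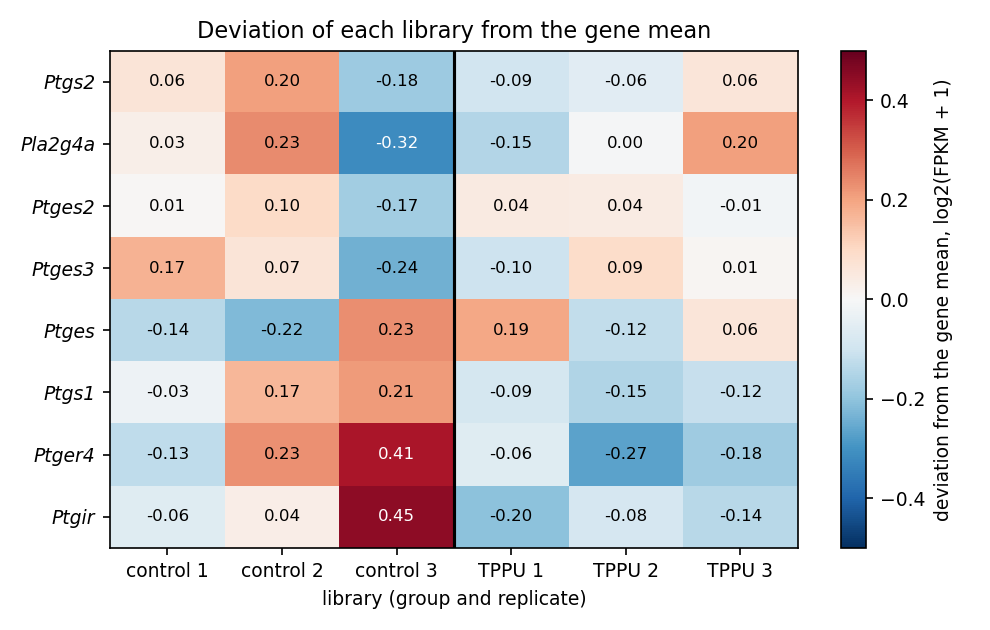
Deviation of each library (columns, by group and replicate) from the gene's mean over 6 libraries on the log2(FPKM + 1) scale, for the 8 tested members (rows), red for above and blue for below. In the control 3 column Ptgir reaches 0.45 and Ptger4 0.41, while Pla2g4a is at -0.32, and no other column holds a value above 0.235 or below -0.269.

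**Figure D4:**
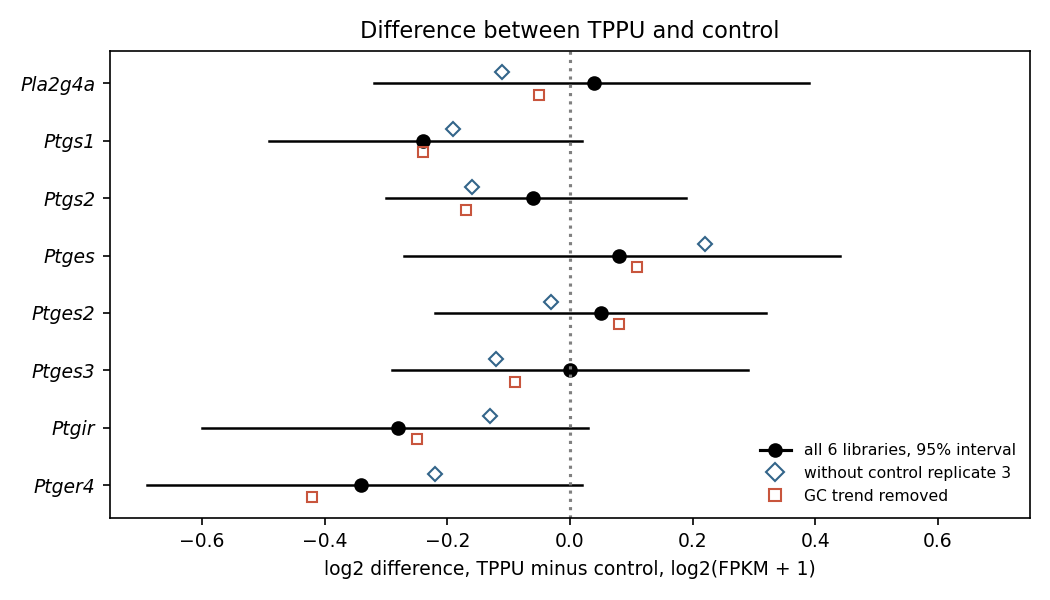
Log2 difference of TPPU minus control for the 8 tested members (filled circles) with 95% intervals from limma, beside the value without control replicate 3 (diamonds) and with the GC trend removed (squares). All 8 intervals include 0, those of Ptgs1, Ptgir and Ptger4 lie mostly below it, and without control replicate 3 the values for Ptgir and Ptger4 are -0.13 and -0.22.

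Other genes of the pathway were read from 5 lists with 67 genes, of which 61 were in the table and 43 were tested. None passed with limma in either direction at an adjusted p of 0.05. At an unadjusted p under 0.05 there was 1 lower gene, Pla2g2e, and 0 higher, against 3.7% of all tested genes that were lower. The median log2 difference was 0.00, with 24 positive and 19 negative.

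The list of arachidonic acid release and reacylation had 18 tested genes with a median of 0.03, 12 of them positive and 6 negative. The groups did not overlap for 3 of the 18, 2 lower and 1 higher with TPPU, a count near the background of 7.88% lower and 7.48% higher over all tested genes. Both lower genes encode secreted phospholipases A2. Pla2g12a, another such gene, named after its value was seen, had a positive log2 difference of 0.16 (limma adjusted p = 0.725). Pla2g2e measured 27.1, 26.6 and 27 FPKM in the controls and 21.1, 24.9 and 22.6 with TPPU. Its log2 difference was -0.23 (95% interval -0.45 to -0.01, limma adjusted p = 0.62), and -0.23 without control replicate 3. Pla2g5 was the most abundant gene of the list, at 94.7, 90.5 and 116 in the controls and 86.1, 86.7 and 83.4 with TPPU (log2 difference -0.22, limma adjusted p = 0.633), or -0.12 without control replicate 3. Every TPPU value of both genes lay below every control value. Lpcat2, which puts fatty acids back into lysophospholipids, went the other way without overlap, at 20.1, 19 and 20.3 in the controls and 20.4, 22.8 and 23.1 with TPPU (log2 difference 0.15, limma adjusted p = 0.699). Anxa1, an inhibitor of phospholipase A2 activity, measured 45.6, 49.1 and 28.5 in the controls and 42.2, 52.2 and 50.5 with TPPU, with control replicate 3 the lowest. Its log2 difference was 0.26, and 0.02 without that library.

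Among other prostanoid synthases, 3 of 7 genes were tested. Hpgds, the hematopoietic prostaglandin D synthase, measured 35.9, 32.6 and 26.3 FPKM in the controls and 31.8, 31.8 and 30.6 with TPPU. Akr1b3, an aldo-keto reductase that can form prostaglandin F, measured 24.2, 23.9 and 29.8 in the controls and 29.6, 27.1 and 26.7 with TPPU. Cbr1, a carbonyl reductase that acts on prostaglandin E2, measured 7.06, 4.71 and 6.54 in the controls and 5.2, 4.72 and 4.54 with TPPU (log2 difference -0.27, limma adjusted p = 0.661), a difference that was -0.175 without control replicate 1 and -0.423 without control replicate 2. The groups overlapped for all 3. Hpgds thus stood near Ptgir in level, while Ptgds and Ptgis, the genes of the other prostaglandin D synthase and of prostacyclin synthase, were at 0.162 or below and 0.0856 or below.

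Of the other prostanoid receptors none was tested. Ptger1, the gene of EP1, lay between 0.442 and 0.846 FPKM, and Ptgdr2 at 0.178 or below. In the transport and breakdown list 4 of 6 genes were tested, with a median of 0.01. Abcc4, which exports prostaglandins, measured 12.9, 13.4 and 13.3 in the controls and 12.4, 13.4 and 13.8 with TPPU. The reductases Ptgr1, Ptgr2 and Zadh2 had log2 differences of -0.18, 0.02 and 0.09 (limma adjusted p = 0.744, 0.962 and 0.826). That of Ptgr1 was -0.05 without control replicate 3. Hpgd, the enzyme that starts prostaglandin E2 breakdown, was listed at 0 in at least 1 library and reached 1.2 at most.

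The cyclic AMP list, genes downstream of EP2, EP4 and IP, had 18 tested members of 24, with a median of -0.02, 7 positive and 11 negative. Prkar2b, a regulatory subunit of protein kinase A, measured 3.7, 4.17 and 5.86 FPKM in the controls and 6.18, 5.37 and 5.89 with TPPU. Its log2 difference was 0.31 (95% interval -0.05 to 0.66, limma adjusted p = 0.644), 0.46 without control replicate 3, where the groups did not overlap, and 0.19 without control replicate 1. Arrb1, which encodes a beta-arrestin, had a log2 difference of -0.18 (limma adjusted p = 0.725), and -0.08 without control replicate 3. Grk2 and Arrb2, a receptor kinase and an arrestin that switch off receptors of this kind, were the most abundant, at 62.4 to 78.7 and 53.4 to 72.1 over the 6 libraries, with overlapping groups.

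**Figure D5:**
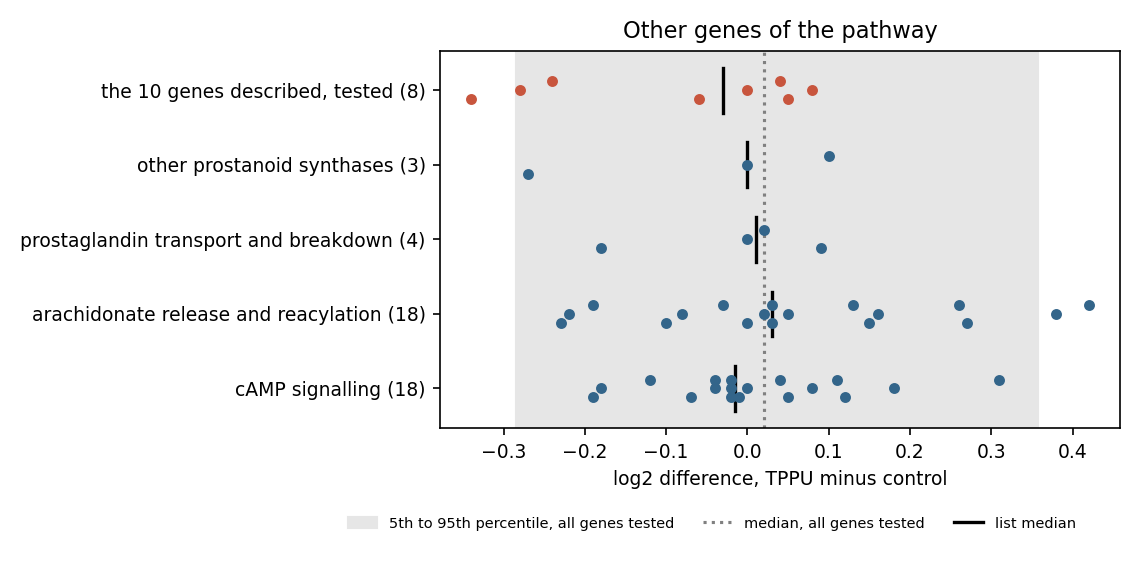
Log2 difference of TPPU minus control (horizontal axis) for each tested gene of the set described and of 4 lists with tested genes, with black lines at list medians and the 5th to 95th percentile of all tested genes in grey (-0.28 to 0.36). List medians lie between -0.03 and 0.03, Ptger4 at -0.34 lies left of the grey band, and Acsl3 at 0.42 and Acsl5 at 0.38 lie right of it.

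Acsl3 and Acsl5, which activate fatty acids for reacylation, were named after their values were seen (limma adjusted p = 0.725 for each). Genes with a pattern over the 6 libraries most like that of Ptgs2, among 4235 with a mean of at least 10 FPKM, were Serpinb6a, Cpd and Rnf185, with root mean square differences in log2 deviation of 0.0281, 0.0292 and 0.0346. Those most like Ptger4, the member with the smallest unadjusted p (0.0592), were Ccl4, Tnfrsf12a and Npc1, at 0.0415, 0.0507 and 0.0619. Like Ptger4, all 3 were highest in control replicate 3, with Ccl4 at 1381 FPKM there and 829 to 1111 in the other libraries. That follows from picking them for likeness over the same libraries, so it is no separate result. Control replicate 3 was the highest library for 34.8% of all tested genes.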

How the data were processed

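Values are FPKM that the authors deposited as 1 table, fragments relative to gene length and library depth. The unit is read from the table's name and values. The submitters' processing notes name mm10 as the build. The aligner, counter, annotation and filters were not given in the sources used here. Each column carries a library name found in 1 sample's description. The members and gene lists were chosen with earlier results of these data known. The text names the 10 members, from each pathway list up to 3 tested genes with the smallest p and up to 2 with the highest mean, and the 3 genes most like Ptgs2 and like the member with the smallest p.

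The 9728 genes that reached 1 FPKM in 3 or more of the 6 libraries were fitted on log2(FPKM + 1) with limma 3.58.1 under R 4.3.3, using its mean-variance trend and no covariate beside group. All tests were two-sided, with Benjamini-Hochberg adjustment over all tested genes at 0.05, and intervals are at 95%. Differences on this scale understate those of low genes. Members under the filter had an exact permutation test. Depth came from low values of genes with 1 transcript, of which 96% to 97.1% were whole fragments within 0.1, against 20% by chance. Each depth was chosen to make these same values whole, and the 20% holds for a depth not so chosen, so the share is no separate check. Positions, exon lengths and GC content are from GENCODE M21 (mm10, 1-based), with GC content for 97.9% of tested genes. Alternatives were other pseudocounts, filters, scalings and variance models, a replicate block, each library left out, and loess removal of GC or length trends. Motifs were chosen with the sequences in view. The value of 1 marker gene is not reported here. The fit was tested on simulated data, drawn for each gene on its own. No simulated library stood apart as control replicate 3 did, so that case was not tested. Python 3.11.15, numpy 2.4.6, pandas 2.3.3, scipy 1.17.1 and matplotlib 3.10.9 were used.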

Additional observations from a re-analysis of the deposited data

How the results depend on the processing

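No member and no other pathway gene passed the adjusted threshold under any of the 18 alternatives, and the smallest adjusted p of a tested member was 0.365, with the GC trend removed. Among the other pathway genes the text names, Prkar2b came nearest, with sample quality weights. Its limma adjusted p was 0.0574 and its log2 difference 0.459, and Cbr1 followed at 0.118 and -0.399. These weights were 3.84, 0.83 and 0.19 for control replicates 1, 2 and 3, so control replicate 1 counted most. That library held the lowest value of Prkar2b, 3.7 FPKM, and the highest of Cbr1, 7.06 FPKM. Over all genes the count of 0 became 169 with sample quality weights and 1 with the GC trend removed, and 0 to 5 with 1 library left out, the 5 without TPPU replicate 1. The cause was not tested. The median of the members, -0.03, was -0.102 with sample quality weights, -0.131 with the GC trend removed and between -0.125 (without control replicate 3) and 0.012 (without control replicate 2) with 1 library left out. At an unadjusted p under 0.05 there were 3 members without control replicate 1 (Ptger4, Ptgir and Ptgs1), 3 with the GC trend removed (Ptgs2, Ptgir and Ptgs1), 1 with quantile normalization (Ptger4) and 1 with no filter (Tbxas1), and 0 otherwise. Over all genes the counts in these settings were 721 of 9636, 1205 of 9522, 793 of 9728 and 1232 of 18019, against 768 of 9728 in the main fit.

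Differences near 0 changed sign. With 1 library left out, that of Ptgs2 ranged from -0.164 to 0.029, of Ptges from -0.005 to 0.222, of Ptges2 from -0.028 to 0.108, of Ptges3 from -0.12 to 0.087 and of Pla2g4a from -0.114 to 0.161. Ptges3 was at 0 with a pseudocount of 0.1. Pla2g4a was at -0.019 with quality weights and -0.046 with the GC trend removed. With 1 library left out, Hpgds ranged from -0.121 to 0.096, Ptgr2 from -0.014 to 0.067, Abcc4 from -0.029 to 0.044, Arrb2 from -0.026 to 0.159, Serpinb6a from -0.145 to 0.026 and Rnf185 from -0.125 to 0.055. Hpgds, at 0.001 with all libraries, was at -0.001 with median-of-ratios scaling, -0.007 with quantile normalization, -0.146 with quality weights, -0.101 with the GC trend removed and -0.009 with the length trend removed. Ptgr2 was at -0.008, -0.029 and -0.061 with quantile normalization, quality weights and the GC trend removed. Abcc4 was at -0.001, -0.017 and -0.008 with median-of-ratios scaling, quantile normalization and the GC trend removed. The cause was not tested. Ptgs1, Ptgir and Ptger4 stayed negative under all 17, 18 and 17 alternatives that gave a value, but with sample quality weights they were -0.144, -0.098 and -0.158, against -0.235, -0.282 and -0.339. With those weights Ptgr1, Arrb1 and Pla2g5 were -0.109, -0.049 and -0.144, and Anxa1 was 0.129.

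With the replicate number as a block, 0 of 9728 genes passed and 513 had an unadjusted p under 0.05, against 768 without it, and the smallest adjusted p of a member was 0.898. Whether the numbers pair the samples was not settled. Deviations from the group means correlated at -0.301, 0.154 and -0.399 for replicates 1, 2 and 3, and TPPU replicate 1 correlated best with control replicate 3 (0.506). Such deviations depend on one another within a group, and control replicate 3 stood apart, so these correlations cannot decide it. Depth limits Tbxas1 and Ptger2, with 4 to 22 and 3 to 11 fragments per library. Ptgs1, Ptges, Ptges2 and Ptger4 fell under a mean of 5 FPKM and gave no value there.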

Other observations

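Genes named for their place beside members were looked at after the values were seen. Ptgs2os, a non-coding RNA transcribed from the other strand next to Ptgs2 (chromosome 1, 150074873 to 150099963, mm10), measured 1.75, 2.37 and 0.967 FPKM in control replicates 1, 2 and 3 and 1.12, 1.39 and 1.36 in TPPU replicates 1, 2 and 3. Ptgs2os lies on the upstream side of Ptgs2. Ptgs2os2, on the downstream side (150159043 to 150164948, minus strand), measured 8.39, 5.29 and 3.52 in the controls and 4.07, 7.66 and 9.47 with TPPU. Ptgs2os2 varied by 38.2% over the 6 libraries, against 9.62% for Ptgs2. Both were lowest in control replicate 3, as Ptgs2 was, and the groups overlapped for both.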
